A study of Mus musculus with 12 samples.

Results

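The genes described here were the 6 ligands *Areg*, *Ereg*, *Btc*, *Hbegf*, *Tgfa* and *Egf* of the EGF family and the 4 ErbB receptors *Egfr*, *Erbb2*, *Erbb3* and *Erbb4*, 10 of the 52169 gene symbols in the RNA-seq table of mouse striatum. The genes were chosen by name after *Areg* had been seen to stand among the largest rises of the lesioned striatum after chronic L-DOPA, and each was represented by the transcript selected on its highest mean CPM, the counts scaled to a common library total, over all 12 libraries. The chronic values of *Areg* are therefore given as a description, without a test.

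All C57BL/6J mice had received 6-OHDA, a toxin taken up by dopamine neurons, into the right medial forebrain bundle (1 µl at 3 µg per µl) under desipramine (25 mg/kg), which protects noradrenergic neurons. After 2 weeks every mouse was injected with L-DOPA (10 mg/kg), the precursor of dopamine, together with benserazide (7.5 mg/kg), which blocks its conversion outside the brain, and the striatum was taken 1 h after the last dose. The 4 groups of 3 libraries were the unlesioned (left) and lesioned (right) striatum after a single dose, called acute, and after daily doses for 9 days, called chronic. No group without L-DOPA was analysed here, and the lesion was always on the right, so lesion, side and response to L-DOPA cannot be told apart within a lesioned-to-unlesioned difference. The mice were female, and ages were not given in the sources used here.

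EGF family ligands are made as membrane-anchored precursors, cut free by metalloproteases such as Adam17, and bind ErbB receptor tyrosine kinases in or between neighbouring cells. Amphiregulin (*Areg*), TGF-alpha (*Tgfa*) and EGF (*Egf*) bind Egfr, while betacellulin (*Btc*), HB-EGF (*Hbegf*) and epiregulin (*Ereg*) bind Egfr and Erbb4; neuregulins bind Erbb4, and some of them Erbb3 as well. Erbb2 binds no ligand of its own and pairs with the other receptors, and Erbb3 has little kinase activity and signals through its partners. The active pairs signal through Ras and PI3 kinase. In brain, Erbb4 is known for its place in interneurons, Erbb3 in the oligodendrocyte lineage and Egfr in glia and progenitors.

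In short, the lesioned side held more *Areg* and *Hbegf* mRNA after a single dose and, by a far wider margin, after 9 days of L-DOPA, slightly less *Tgfa* after a single dose, and less *Erbb4* after 9 days. *Areg* went from a mean of 0.0662 CPM ± 0.0216 (SD, n = 3) in the chronic unlesioned striatum to 7.29 CPM ± 2.53 in the chronic lesioned striatum. *Hbegf* went from 4.61 ± 0.221 to 14.9 CPM ± 1.72. The acute calls of *Hbegf* and *Tgfa* and the chronic call of *Erbb4* were each lost when some single libraries were left out. *Egf* and *Egfr* passed the test in no comparison, and *Btc* and *Ereg* were too low to be tested.

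The promoters of 3 members are shown because *Areg* had the largest difference, *Tgfa* was the most abundant ligand and *Erbb4* was the receptor called lower in the chronic lesion effect without the replicate block (a fit that pairs the libraries of the same number). The sequences are the 250 bases before the start of each gene as listed by RefSeq on GRCm38.p6, 5′ to 3′ on the strand of the gene. They lie at chr5:91139349-91139598 (plus strand), chr6:86194972-86195221 (plus strand) and chr1:69108060-69108309 (minus strand), in that order. Capitals mark the CRE, the site bound by CREB family factors that act downstream of cAMP.
Areg: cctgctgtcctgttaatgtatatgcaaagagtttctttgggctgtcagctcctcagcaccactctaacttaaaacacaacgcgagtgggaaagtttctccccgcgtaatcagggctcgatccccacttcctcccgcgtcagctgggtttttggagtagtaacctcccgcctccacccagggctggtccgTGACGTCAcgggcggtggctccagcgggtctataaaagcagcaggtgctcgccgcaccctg
Tgfa: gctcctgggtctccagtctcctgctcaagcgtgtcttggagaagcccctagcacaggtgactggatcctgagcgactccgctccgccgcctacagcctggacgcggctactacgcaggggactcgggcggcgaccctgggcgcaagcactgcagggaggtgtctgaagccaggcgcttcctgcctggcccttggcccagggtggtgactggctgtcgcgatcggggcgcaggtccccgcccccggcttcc
Erbb4: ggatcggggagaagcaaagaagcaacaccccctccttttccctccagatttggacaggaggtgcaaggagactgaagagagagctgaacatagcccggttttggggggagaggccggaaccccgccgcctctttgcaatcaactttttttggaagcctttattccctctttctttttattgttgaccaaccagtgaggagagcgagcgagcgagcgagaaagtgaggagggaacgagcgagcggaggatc

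The *Areg* window held the full CRE TGACGTCA with its first base at -61 relative to the start, and a TATA box (TATAAA) at -31. The full CRE was present in 508 of the 32851 promoters of the same length, or 1.55%, counting both strands. The TATA box was present in 12.4% of them. A further CRE half-site (TGACG or its reverse complement) stood at -115 in the *Areg* window, besides the overlapping pair inside the full CRE, and half-sites occurred in 17.8% of all promoters. Of the 7 members with a promoter entry (8 entries, since *Egf* had a pair of them), *Areg* was the one with a full CRE, while *Btc* and *Erbb2* each held 1 half-site and *Egf*, *Egfr*, *Erbb4* and *Tgfa* held none. The members without an entry were *Hbegf*, *Ereg* and *Erbb3*. An AP-1 site (TGANTCA, both strands) was in 6.75% of all promoters and in no window of these members. The *Areg* window occurs once on chromosome 5 of the mm9 genome, the build of the deposited table, at chr5:91568375-91568624, ending at the base before the first base of the transcript used. A match of letters describes the window and shows no binding.

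The libraries held between 87695043 and 173116525 counts over named transcripts that overlap each other. The 9 markers of striatal spiny neurons, the main cell type of the striatum, summed to between 1797 and 2420 CPM, and the 5 markers of cortical glutamatergic neurons to between 1.59 and 41.1 CPM. In 1 chronic unlesioned library (replicate 2) the 5 choroid plexus markers summed to 480 CPM, against 3.68 to 11.7 CPM in the other libraries. Without that library the chronic lesion effect was 1.73 for *Hbegf*, -0.84 for *Erbb4* and -0.28 for *Erbb3*. Between the unlesioned groups the values were -0.42 for *Hbegf*, -0.36 for *Tgfa* and -0.36 for the *Erbb2* transcript. Fits with the replicate block were not repeated without it. These are tissue punches, in which fewer cells of a type and less RNA per cell cannot be told apart.

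The level of the ligands was compared between genes per length, as CPM per kb of transcript, in the acute unlesioned striatum first. *Tgfa* led with 10.2 ± 0.802 (SD, n = 3), followed by *Hbegf* with 2.54 ± 0.0518. *Areg*, at 0.0643 ± 0.0183, and *Egf*, at 0.0551 ± 0.0158, did not differ beyond their spread. *Btc* was at 0.0117 ± 0.00701, and at 0.0175 ± 0.0109 by its RefSeq transcript. *Ereg* was lowest, at 0.00104 ± 0.000918 by its RefSeq transcript on the plus strand. The transcript selected for *Ereg* is a clone of 408 bases annotated on the minus strand, with 0.0152 ± 0.0141 CPM per kb. In the chronic lesioned striatum the order at the top closed up: *Tgfa* stood at 7.27 ± 0.855, *Hbegf* at 6.29 ± 0.726 and *Areg* at 6.05 ± 2.1 CPM per kb, differences within the spread of the libraries. The summed level of the 6 ligands was 12.9 ± 0.843 in the acute unlesioned, 12.2 ± 0.365 in the acute lesioned, 10.1 ± 0.312 in the chronic unlesioned and 19.7 ± 2.26 CPM per kb in the chronic lesioned group. *Tgfa* made up 79.1% ± 1.08 of that sum in the acute unlesioned, 69.6% ± 0.246 in the acute lesioned, 79.5% ± 1.37 in the chronic unlesioned and 37.4% ± 7.02 in the chronic lesioned group. The share of *Areg* was 0.506% ± 0.173, 4.93% ± 0.385, 0.548% ± 0.191 and 30.2% ± 6.89 in the same order. *Hbegf* took 19.8% ± 0.941, 24.8% ± 0.337, 19.3% ± 1.15 and 31.9% ± 1.22. Without chronic unlesioned replicate 2 the chronic unlesioned shares were 79.7% for *Tgfa*, 0.654% for *Areg* and 19.1% for *Hbegf*. These shares contain *Areg* and are given as a description.

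**Figure D1:**
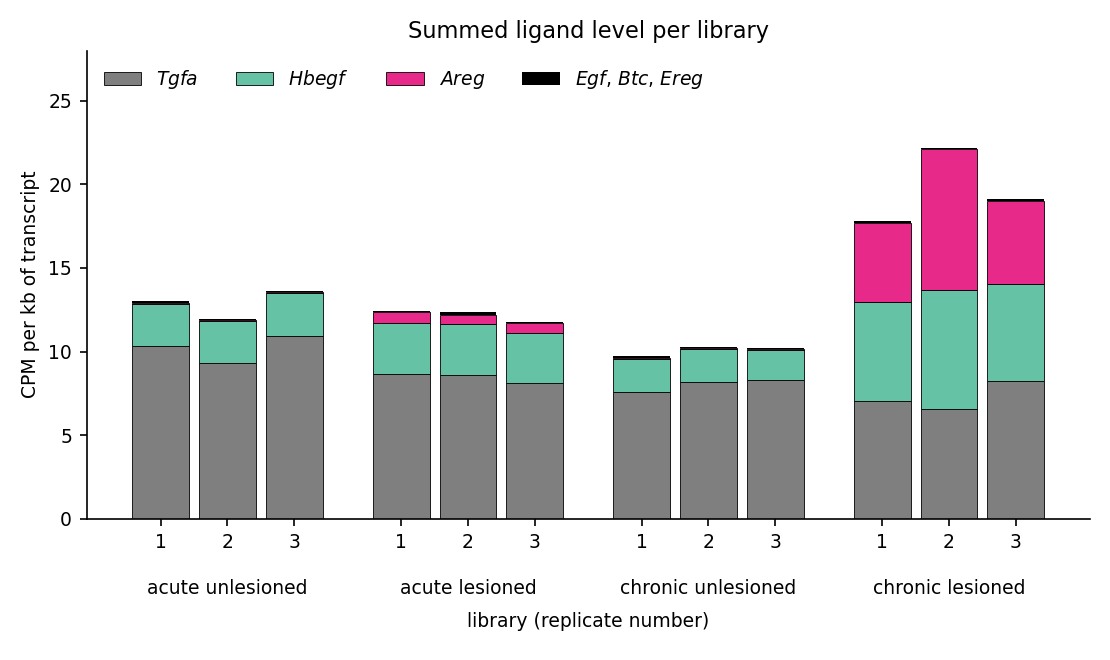
Summed level of the 6 ligands in each of the 12 libraries, in CPM per kb of transcript, stacked by gene. The chronic lesioned libraries stand above all others, and the added height is *Hbegf* and *Areg*, with *Tgfa* at 7.27 CPM per kb on average.

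*Areg*, amphiregulin, is encoded on chromosome 5 (mm9 chr5:91568625-91577449, plus strand, 6 exons). Its counts were 10, 14 and 10 in the acute unlesioned, 104, 58 and 76 in the acute lesioned, 9, 5 and 11 in the chronic unlesioned and 504, 1104 and 651 in the chronic lesioned libraries. In CPM these were 0.0570, 0.101 and 0.0750, then 0.788, 0.671 and 0.708, then 0.0829, 0.0417 and 0.0739, then 5.74, 10.2 and 5.93. Every lesioned library was above every unlesioned one, and every chronic lesioned library above every acute lesioned one. In the acute comparison *Areg* passed the filter on low counts only through the lesioned libraries, where it is higher. After acute L-DOPA the log2 fold change of lesioned against unlesioned was 3.24 (SE 0.23, adjusted p = 2.33e-06 by edgeR), and the libraries of the same number stood 13.8, 6.65 and 9.45 times apart. After chronic L-DOPA it was 6.76 (SE 0.33), with ratios of 69.2, 245 and 80.3 in the numbered pairs. The ratio of 245 rests on 5 counts in the unlesioned library of replicate 2, the one with the choroid plexus markers, and without that library the chronic log2 fold change was 6.53; without the chronic lesioned library of replicate 2, the highest one, it was 6.45. Between the lesioned groups, chronic stood above acute by 3.33 (SE 0.23). The unlesioned groups differed by -0.21 (SE 0.40, adjusted p = 0.810 by edgeR). The 3 *Areg* transcripts in the table, which overlap, had 3.24 in the acute and 6.76 to 6.87 in the chronic lesion effect.

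*Hbegf*, the heparin-binding ligand, lies on chromosome 18 (mm9 chr18:36664581-36675459, minus strand, 6 exons). Its CPM were 6.00, 5.92 and 6.16 in the acute unlesioned, 7.25, 7.24 and 7.04 in the acute lesioned, 4.66, 4.80 and 4.37 in the chronic unlesioned and 14.0, 16.9 and 13.9 in the chronic lesioned libraries. No pair of groups overlapped. The acute lesion effect was 0.26 on the log2 scale (SE 0.06, adjusted p = 0.0179 by edgeR), with same-numbered ratios of 1.21, 1.22 and 1.14. Leaving out 1 library ended this call for 3 of the 6 libraries (acute unlesioned replicates 1 and 2 and acute lesioned replicate 2, adjusted p up to 0.0835 by edgeR), while the value stayed between 0.24 and 0.27. In the same comparison 3 of 6 microglia markers (median 0.28) and 2 of 6 astrocyte markers (median 0.23) were called higher and none lower. Of all transcripts tested there 12.9% were called, and the part of these markers in the *Hbegf* value was not tested. The chronic lesion effect was 1.70 (SE 0.10, adjusted p = 1.73e-06), with ratios of 3.00, 3.53 and 3.18, and it lay between 1.61 and 1.75 with any 1 library left out. Between the lesioned groups, chronic was higher by 1.06 (SE 0.09, adjusted p = 2.84e-05). Between the unlesioned groups, chronic was lower by a log2 fold change of -0.39 (SE 0.07, adjusted p = 0.0267), a call that was lost when any library other than chronic unlesioned replicate 2 was left out (adjusted p up to 0.125). The lesion effect was larger after chronic than after acute L-DOPA by 1.45 (SE 0.11, adjusted p = 2.52e-06 for the interaction in edgeR). All 5 *Hbegf* transcripts, which may share reads, were higher in the chronic lesion effect, by 1.69 to 1.71.

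The mRNA of *Th*, listed here as a marker of dopaminergic terminals, was higher together with *Areg* and *Hbegf* in the chronic lesion effect. The paper states that its lesion procedure lowers striatal immunoreactivity for tyrosine hydroxylase, the enzyme encoded by *Th*. The *Th* values are therefore not read as a measure of terminals, and the cells that held this mRNA were not tested. *Th*, which encodes the rate-limiting enzyme of dopamine synthesis, and *Slc6a3*, the dopamine transporter, summed to 1.58 to 2.07 CPM in the acute unlesioned, 1.10 to 1.83 in the acute lesioned, 1.78 to 2.00 in the chronic unlesioned and 8.36 to 10.98 CPM in the chronic lesioned libraries. *Slc6a3* did not pass the filter on low counts. *Th* was at -0.33 (SE 0.17, adjusted p = 0.225 by edgeR) in the acute lesion effect, which did not pass the test. It was at 2.39 (SE 0.12, adjusted p = 4.48e-07) in the chronic lesion effect, a difference of 2.72 (SE 0.22, adjusted p = 3.72e-06 by edgeR). Its part in the values of *Areg* and *Hbegf* was not tested.

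*Tgfa*, the most abundant ligand, lies on chromosome 6 (mm9 chr6:86145481-86225633, plus strand, 6 exons) and overlaps a transcript on the opposite strand, whose reads the library kit does not separate. Its CPM were 43.2, 39.0 and 45.6 in the acute unlesioned, 36.2, 36.0 and 34.1 in the acute lesioned, 31.8, 34.1 and 34.6 in the chronic unlesioned and 29.5, 27.4 and 34.4 in the chronic lesioned libraries. The acute unlesioned libraries lay above all other 9. The acute lesion effect was -0.26 (SE 0.07, adjusted p = 0.0234 by edgeR), and leaving out 1 library ended the call for 4 of 6 libraries (acute unlesioned replicates 1 and 3, acute lesioned replicates 2 and 3, adjusted p up to 0.0865 by edgeR). The chronic lesion effect was -0.14 (SE 0.09, adjusted p = 0.404), with overlapping libraries. Between the unlesioned groups, the chronic one was lower, by -0.35 (SE 0.07, adjusted p = 0.0383), and this call too was lost when any library other than chronic unlesioned replicate 2 was left out (adjusted p up to 0.163). The difference between the lesion effects was 0.13 (SE 0.12, adjusted p = 0.608).

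The other ligands were low. *Egf* (mm9 chr3:129380493-129458240, minus strand, 24 exons) had 14 to 46 counts per library and group means of 0.262, 0.225, 0.241 and 0.212 CPM in the order acute unlesioned, acute lesioned, chronic unlesioned, chronic lesioned. Its libraries overlapped in every comparison, and its log2 fold changes of -0.23 (SE 0.26) in the acute and -0.15 (SE 0.39) in the chronic lesion effect did not pass the test. *Btc* (mm9 chr5:91786415-91831848, minus strand) had 2 to 12 counts per library and 3 in each chronic lesioned library. *Ereg* had at most 2 counts in any library by either its selected transcript or its RefSeq transcript (mm9 chr5:91503643-91522675, plus strand). The limit of 3 counts that a count of 0 allows was 0.0171 to 0.0347 CPM, so *Ereg* was not detectable above it in any group. These limits and the counts cover counting error only.

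**Figure D2:**
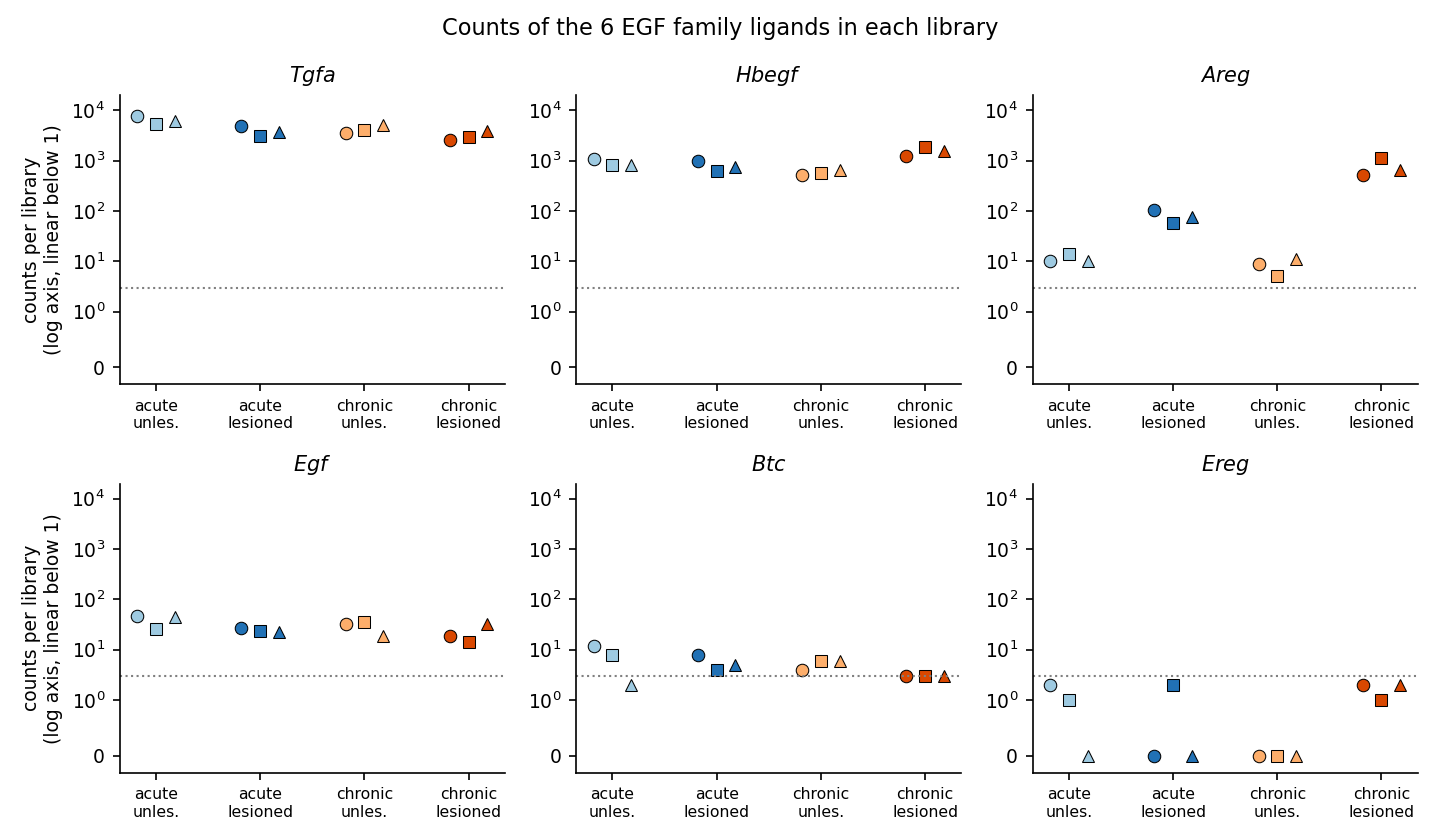
Counts of the 6 ligands in each library on a log axis that is linear below 1, not adjusted for library depth. Circles, squares and triangles are replicates 1, 2 and 3, and the dotted line is 3 counts. *Areg* moves from 5 to 14 counts in the unlesioned libraries to 504 to 1104 in the chronic lesioned ones, and *Ereg* stays under the line.

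*Areg*, *Ereg*, *Btc* and the epithelial mitogen gene *Epgn* are neighbours, within 375 kb of chromosome 5. *Ereg* ends 46.0 kb before *Areg* and *Btc* begins 209 kb after it. Within this stretch *Areg* had up to 1104 counts in a library, against at most 13 for *Btc* by either of its 2 transcripts looked at, 7 for *Epgn* and 2 for *Ereg*. Of the genes flanking the stretch, *Mthfd2l*, a mitochondrial folate enzyme gene, had a chronic lesion effect of -0.29 (SE 0.17, adjusted p = 0.340 by edgeR). *Parm1*, beyond *Btc*, was higher in both lesion effects, by 0.31 (SE 0.07, adjusted p = 0.0118) after acute and 0.75 (SE 0.14, adjusted p = 0.00658) after chronic L-DOPA. Its group means were 10.1, 12.4, 9.26 and 15.5 CPM. The acute call of *Parm1* was lost without acute unlesioned replicate 1 or 3 or acute lesioned replicate 2 (adjusted p up to 0.0563), and its chronic value was 0.90 without chronic unlesioned replicate 2.

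For the receptors, levels per length in the acute unlesioned striatum were 0.601 ± 0.0882 CPM per kb for *Erbb3* and 0.579 ± 0.0283 for *Erbb4*, which overlapped. *Egfr* followed at 0.199 ± 0.0195 and *Erbb2*, by its RefSeq transcript, at 0.103 ± 0.0163. By RefSeq transcripts *Erbb3* stood at 0.594 ± 0.0772 and *Erbb4* at 0.466 ± 0.0162, without overlap, and *Egfr* at 0.243 ± 0.0212. The distance between *Erbb3* and *Erbb4* thus depends on the transcript. The 4 receptors summed to 1.48 ± 0.115 CPM per kb in that group, 1.60 ± 0.278 in the acute lesioned, 1.62 ± 0.134 in the chronic unlesioned and 1.19 ± 0.235 in the chronic lesioned group. In the chronic lesioned group *Erbb3* stood at 0.488 ± 0.0934 and *Erbb4* at 0.399 ± 0.117, again overlapping, and *Egfr* stood at 0.188 ± 0.0467 and *Erbb2* at 0.118 ± 0.00931 CPM per kb.

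*Erbb4* (mm9 chr1:68078760-69154633, minus strand, 27 exons) had 7.33, 6.92 and 6.65 CPM in the acute unlesioned and 7.50, 6.21 and 6.32 CPM in the acute lesioned libraries. It had 6.91, 7.73 and 10.3 CPM in the chronic unlesioned and 4.34, 6.37 and 3.68 CPM in the chronic lesioned libraries. The acute groups overlapped, with an effect of -0.05 (SE 0.08, adjusted p = 0.719 by edgeR), whereas every chronic lesioned library was below every chronic unlesioned one. The chronic lesion effect was -0.79 (SE 0.20, adjusted p = 0.0271), with same-numbered ratios of 0.628, 0.824 and 0.357. The call rested on several libraries: without chronic unlesioned replicate 3 it was -0.61 (adjusted p = 0.112), without chronic lesioned replicate 3 it was -0.63 (adjusted p = 0.105) and without chronic lesioned replicate 1 it was -0.73 (adjusted p = 0.0948), all by edgeR. For the RefSeq transcript the chronic lesion effect was -0.93 (SE 0.20, adjusted p = 0.0118), called in 5 of 6 fits with 1 library left out and lost without chronic unlesioned replicate 3 (-0.74, adjusted p = 0.0510). The call of the selected transcript was kept without chronic unlesioned replicate 2, the library with choroid plexus markers, at -0.84 (adjusted p = 0.0265). Of the 14 *Erbb4* transcripts tested, 13 were called lower in the chronic lesion effect, with values from -1.15 to -0.79, and none in the acute one. Overlapping transcripts share reads, so these are not separate observations. Of all transcripts 12.0% were called in the chronic lesion effect. The difference between the lesion effects was -0.74 (SE 0.24, adjusted p = 0.103), -0.75 with the replicate block (adjusted p = 0.0360), and -0.90 for the RefSeq transcript (SE 0.24, adjusted p = 0.0452). Between the lesioned groups, chronic against acute was -0.48 (SE 0.17, adjusted p = 0.0624). The transcript spans over 1 Mb and contains other short transcripts on its own strand, whose reads may be counted with it.

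*Erbb4* is a receptor of striatal interneurons, and the 7 interneuron markers were looked at beside it. Their summed level was 87.5 to 103 CPM in the chronic unlesioned and 95.5 to 109 CPM in the chronic lesioned libraries, higher on the lesioned side in 3 of 3 numbered pairs (95.5 against 87.5, 104 against 103 and 109 against 89.4). In the chronic lesion effect 2 of the 7 were called higher (*Npy*, *Sst*) and 2 lower (*Slc5a7*, *Nos1*), with a median log2 fold change of -0.31. Of all transcripts tested there 12.0% were called, and the part of the interneuron markers in the *Erbb4* difference was not tested. The 5 cortical glutamatergic markers were lower on the lesioned side in 3 of 3 chronic pairs, at 24.3 against 22.5, 5.17 against 1.76 and 41.1 against 1.59 CPM. The same markers were lower in 3 of 3 acute pairs as well, at 30.0 against 15.6, 13.5 against 2.21 and 12.9 against 1.75 CPM. The part of these markers in the *Erbb4* difference was not tested.

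*Erbb3* (mm9 chr10:128004579-128026708, minus strand, 28 exons) had 4.23, 3.33 and 3.28 CPM in the acute unlesioned, 5.89, 3.76 and 3.49 in the acute lesioned, 3.72, 3.92 and 3.43 in the chronic unlesioned and 3.01, 3.46 and 2.34 in the chronic lesioned libraries. Both lesion comparisons overlapped, but the same-numbered libraries moved one way in each treatment, with ratios of 1.39, 1.13 and 1.06 after acute and 0.808, 0.884 and 0.683 after chronic L-DOPA. By the RefSeq transcript the acute ratios were 1.42, 1.20 and 0.957, which did not all go one way, and the chronic ones 0.723, 0.845 and 0.623. Without the block neither lesion effect passed the test: 0.29 (SE 0.17, adjusted p = 0.295 by edgeR) after acute and -0.33 (SE 0.14, adjusted p = 0.163) after chronic L-DOPA. With the replicate block they were 0.27 (adjusted p = 0.0294) and -0.34 (adjusted p = 0.0256), and their difference was -0.60 (adjusted p = 0.00990) against -0.61 (adjusted p = 0.205) without it. The RefSeq transcript with the block had 0.27 after acute (adjusted p = 0.0752, not called), -0.46 after chronic L-DOPA (adjusted p = 0.0117) and a difference of -0.71 (adjusted p = 0.0115). The 9 oligodendrocyte markers are given beside these values. Their summed level was 2167 to 2420 CPM in the acute unlesioned, 2195 to 3629 in the acute lesioned, 1630 to 2325 in the chronic unlesioned and 1212 to 2186 in the chronic lesioned libraries. In each acute pair the lesioned side was higher, at 3629 against 2420, 2733 against 2278 and 2195 against 2167 CPM. In each chronic pair it was lower, at 1212 against 1630, 2186 against 2325 and 1409 against 1704 CPM. In the acute lesion effect 2 of the 9 were called, both higher (median log2 fold change 0.32), and in the chronic one 0 of 9 (median -0.22). Of all transcripts 12.9% were called in the acute and 12.0% in the chronic lesion effect. Between the lesioned groups, where 23.3% of all transcripts were called, all 9 markers were called lower after chronic L-DOPA (median log2 fold change -0.82). *Erbb3* stood there at -0.59 (SE 0.20, adjusted p = 0.0518 by edgeR) and its RefSeq transcript at -0.64 (SE 0.21, adjusted p = 0.0496, called). The RefSeq call was lost without acute lesioned replicate 1 or 2 or chronic lesioned replicate 1 or 3 (adjusted p up to 0.210 by edgeR), with values from -0.81 to -0.34 when any 1 library was left out. Of the 5 *Erbb3* transcripts tested there, which may share reads, 3 were called lower. The part of the oligodendrocyte markers in the *Erbb3* values was not tested. *Erbb3* also overlaps a transcript on the opposite strand.

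*Egfr* (mm9 chr11:16652214-16818161, plus strand, 28 exons), the receptor of *Areg* and *Hbegf*, had 1.80 to 2.15 CPM in the acute unlesioned, 2.01 to 2.27 in the acute lesioned, 1.80 to 2.33 in the chronic unlesioned and 1.37 to 2.21 in the chronic lesioned libraries. All groups overlapped, and its lesion effects were 0.06 (SE 0.11) after acute and -0.13 (SE 0.18) after chronic L-DOPA, with adjusted p of 0.741 and 0.717 by edgeR. None of its 12 transcripts tested in these comparisons was called.

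The transcript selected for *Erbb2* needs care. It is a clone of 2 exons at mm9 chr11:98298238-98301450 on the plus strand that reaches past the RefSeq end of *Erbb2* at 98299030 and overlaps *1810046J19Rik* on the opposite strand. Its mean was 9.29 CPM over all libraries, against 0.548 CPM for the RefSeq transcript of 27 exons (chr11:98273798-98299030), and the kit does not mark the strand. Between the unlesioned groups, the clone was lower in the chronic one, by -0.32 (SE 0.07, adjusted p = 0.0369 by edgeR), and *1810046J19Rik* by -0.30 (SE 0.07, adjusted p = 0.0477). Both calls were lost when any library other than chronic unlesioned replicate 2 was left out (adjusted p up to 0.165 for the clone and 0.184 for *1810046J19Rik*). With the replicate block the clone had an adjusted p of 0.0538 by edgeR, although between treatments the numbers pair no libraries. The RefSeq transcript differed there by 0.08 (SE 0.17, adjusted p = 0.833). In the chronic lesion effect the clone was at 0.25 (SE 0.09, adjusted p = 0.0909, and 0.0365 with the replicate block), and the RefSeq transcript at 0.12 (SE 0.17, adjusted p = 0.730). The RefSeq transcript had 0.450 to 0.615 CPM in the acute and 0.476 to 0.638 CPM in the chronic libraries, and it passed no test.

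**Figure D3:**
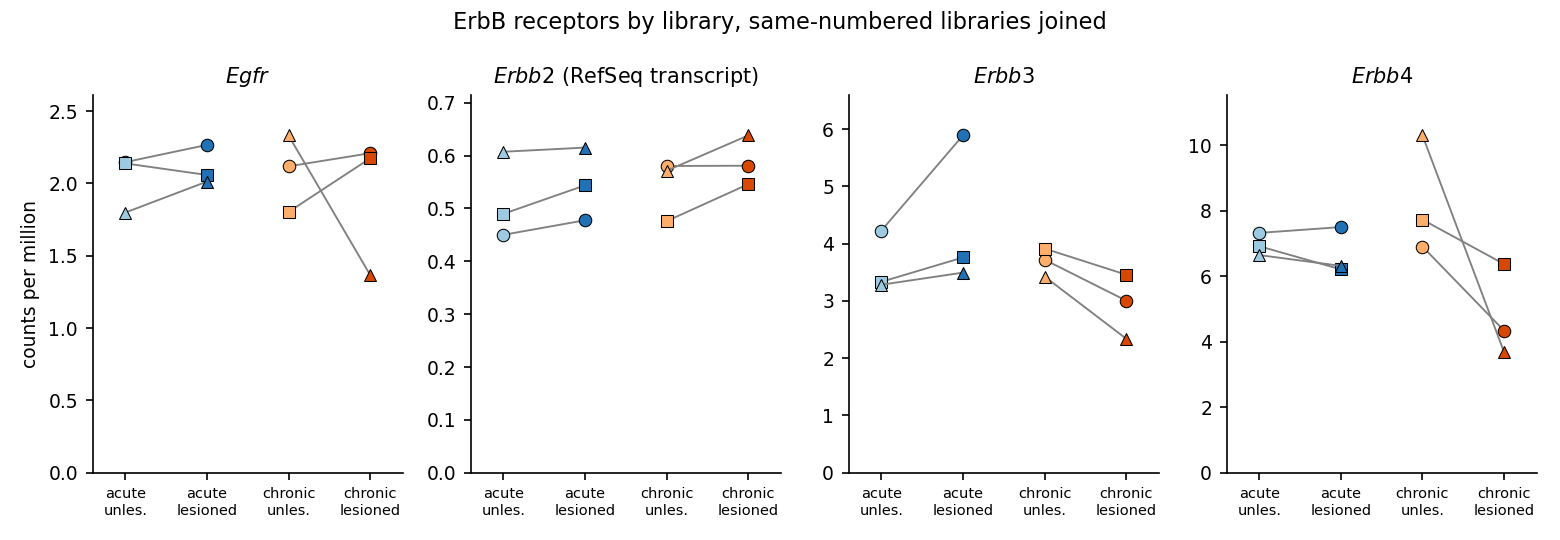
CPM of the 4 receptors by library, *Erbb2* by its RefSeq transcript. Lines join the unlesioned and lesioned library of the same number (circle, square and triangle for 1, 2 and 3). In the chronic pairs *Erbb4* and *Erbb3* are lower on the lesioned side in 3 of 3, and *Egfr* crosses.

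Counted over the members, 8 of the 10 passed the filter on low counts and 3 were called in the acute lesion effect, 2 higher (*Areg* and *Hbegf*) and 1 lower (*Tgfa*), where 12.9% of all 129674 transcripts tested were called. *Areg* passed that filter in this comparison only through the lesioned libraries, and without *Areg* 2 of 7 members were called. In the comparisons that use the chronic lesioned libraries *Areg* was left out of the counts, leaving 7 members. In the chronic lesion effect 2 of these 7 were called, *Hbegf* higher and *Erbb4* lower, where 12.0% of transcripts were called. With the replicate block 4 of the 7 were called, the other two being *Erbb3* and the *Erbb2* clone, where 21.6% of transcripts were called with the block. In the acute lesion effect *Erbb3* was added to the 3 above, at a background of 21.8% with the block. Between the lesioned groups 1 of the 7 was called, *Hbegf*, at a background of 23.3%. Between the unlesioned groups 3 members were called, all lower, at a background of 2.61%, and 1 of these was the *Erbb2* clone. In the same comparison 3 of 6 microglia markers (median -0.47) and 2 of 6 astrocyte markers (median -0.22) were called lower and none higher, and their part in the members' values was not tested. In the difference of the lesion effects 1 of the 7 was called, *Hbegf*, at a background of 4.52%, and 3 with the replicate block (*Hbegf*, *Erbb3* and *Erbb4*), at a background of 12.1%. The median log2 fold change was 0.03 over the 8 members in the acute lesion effect and -0.14 over the 7 in the chronic one, beside 0.0054 and -0.018 over all transcripts. The acute and the chronic lesion effect share no library with each other, and neither do the comparison of the lesioned and that of the unlesioned groups. Every other pair of comparisons shares libraries.

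**Figure D4:**
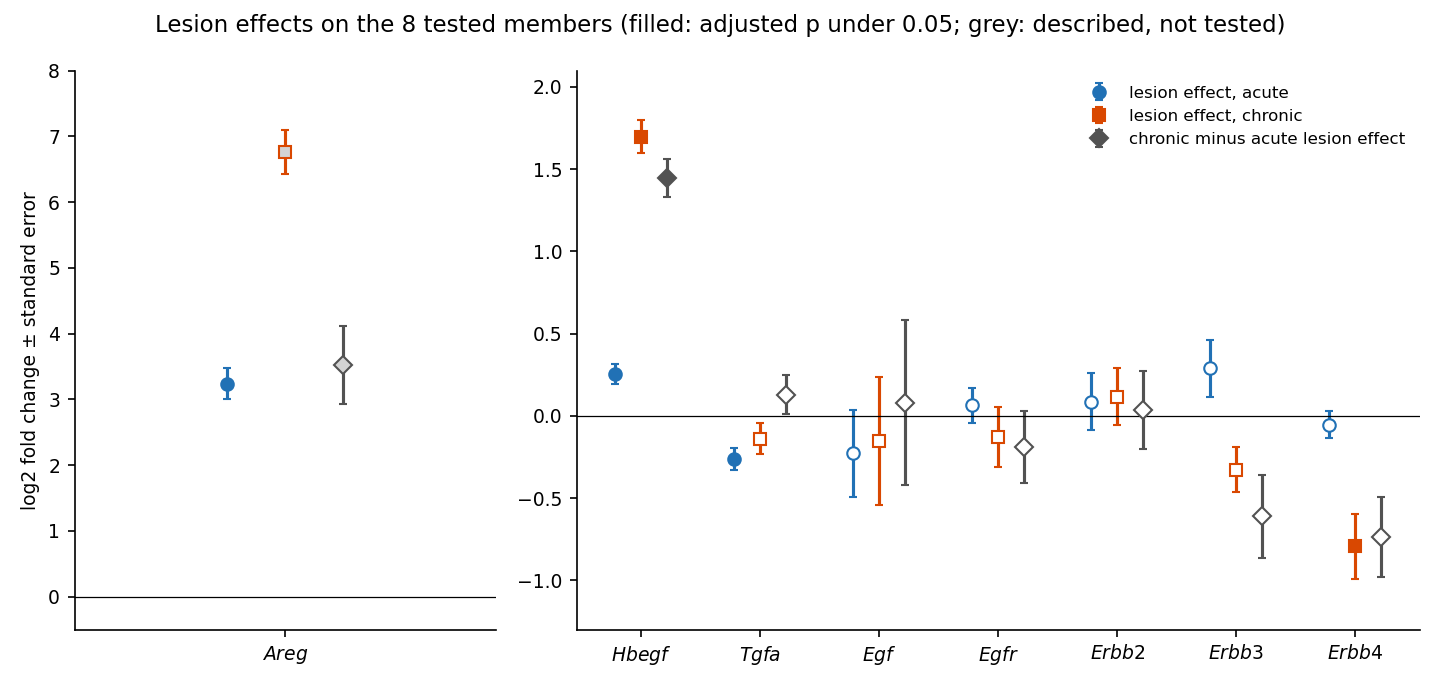
Log2 fold change with its standard error for the 8 members tested, *Erbb2* by its RefSeq transcript and *Areg* on an axis of its own. Filled markers passed the test, open ones did not, and grey *Areg* markers are described without a test. *Hbegf* rises from 0.26 after acute to 1.70 after chronic L-DOPA, and *Erbb4* falls to -0.79.

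The other genes of the pathway were taken from 4 lists with 48 genes, of which 46 were tested. In the acute lesion effect 4 were called higher and 5 lower, with a median of 0.03, and in the chronic lesion effect 2 were called higher and 4 lower, with a median of -0.04. That is 9 and 6 of 46, beside the 12.9% and 12.0% of all transcripts given above. With the replicate block 16 of 46 were called in the acute and 11 of 46 in the chronic lesion effect, beside 21.8% and 21.6% of all transcripts with the block. By role, the other ErbB ligands had 1 of 4 called after acute L-DOPA, the release genes 2 of 4, the feedback inhibitors 3 of 11 and the adaptors and kinases 3 of 27. After chronic L-DOPA the calls were 0 of 4, 0 of 4, 2 of 11 and 4 of 27.

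Among the feedback inhibitors, *Spred1*, which restrains Ras signalling, was lower in the acute lesion effect by -0.78 (SE 0.07, adjusted p = 2.58e-05 by edgeR). Its group means were 58.2 ± 4.78 in the acute unlesioned, 33.8 ± 1.95 in the acute lesioned, 53.1 ± 0.705 in the chronic unlesioned and 48.5 ± 3.96 CPM (SD, n = 3) in the chronic lesioned group. The lesion effect of *Spred1* differed between treatments by 0.65 (SE 0.11, adjusted p = 0.00255). *Lrig3*, of the Lrig family of ErbB regulators, was lower in the chronic lesion effect by -0.73 (SE 0.21, adjusted p = 0.0488), a call lost when any library other than chronic lesioned replicate 2 was left out (adjusted p up to 0.168), and its difference between treatments was -1.24 (SE 0.26, adjusted p = 0.0116). *Lrig3* means were 0.561, 0.797, 0.678 and 0.406 CPM in the order acute unlesioned, acute lesioned, chronic unlesioned, chronic lesioned.

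*Adam17*, the main enzyme that sheds *Areg*, *Tgfa* and *Hbegf* products, was higher in the acute lesion effect by 0.42 (SE 0.08, adjusted p = 0.00587 by edgeR), from 3.96 ± 0.371 to 5.29 ± 0.120 CPM. Its chronic lesion effect was -0.08 (SE 0.13, adjusted p = 0.752), and the difference of -0.49 (SE 0.15, adjusted p = 0.0861) passed with the replicate block (adjusted p = 0.0234). *Nrg3*, a neuregulin that binds Erbb4, was lower in the acute lesion effect by -0.37 (SE 0.09, adjusted p = 0.0190) and at 0.05 (SE 0.10, adjusted p = 0.809) in the chronic one. The acute call of *Nrg3* was lost without acute unlesioned replicate 1 or acute lesioned replicate 2 (adjusted p up to 0.0793). The difference of its lesion effects, 0.42 (SE 0.12, adjusted p = 0.0668), passed with the replicate block (adjusted p = 0.0345). Its means were 2.95 ± 0.192, 2.27 ± 0.0916, 3.50 ± 0.286 and 3.62 ± 0.142 CPM in the order acute unlesioned, acute lesioned, chronic unlesioned, chronic lesioned.

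**Figure D5:**
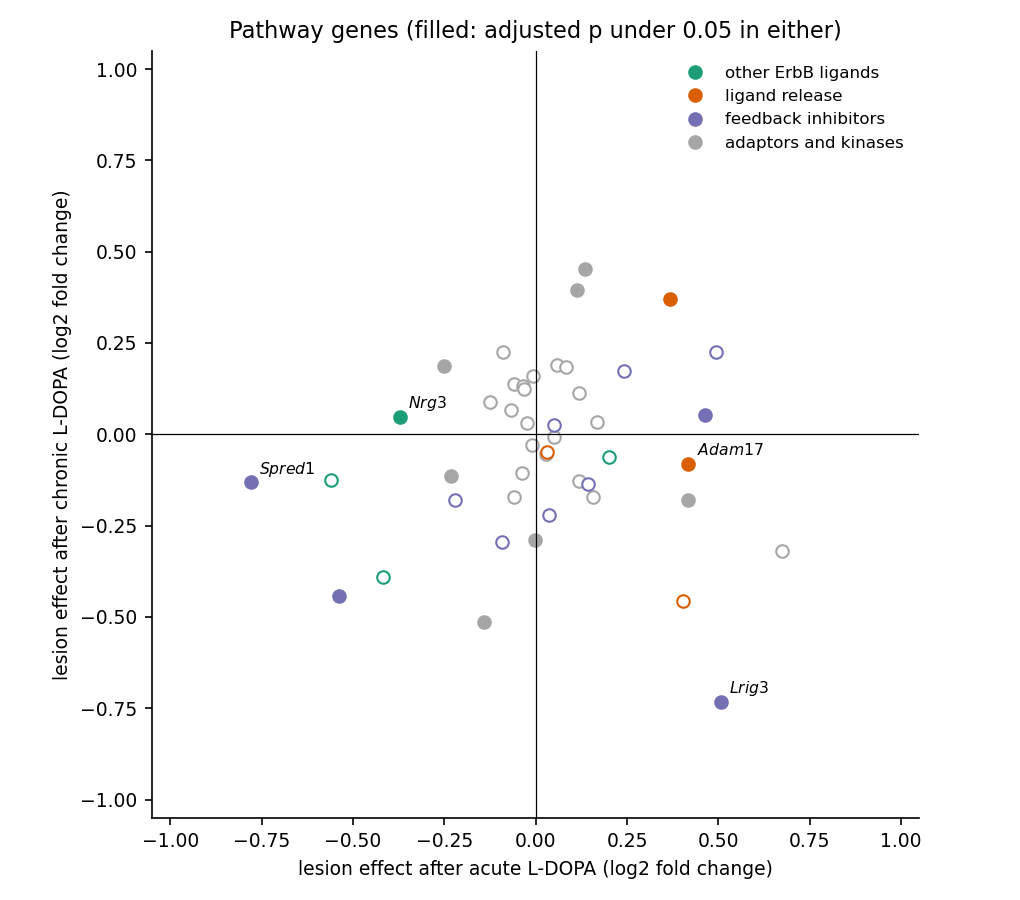
Log2 fold change of the pathway genes in the acute (x axis) and chronic (y axis) lesion effect, coloured by role, with open circles for genes called in neither and names on the 4 genes described above. *Spred1* lies at -0.78 on the x axis, and *Lrig3* at -0.73 on the y axis.

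For each member with a mean of at least 1 CPM in some group, the 3 genes with the most similar pattern over the 12 libraries were taken out of 12794, by Pearson's r on log2(CPM + 0.5). *Areg* reached that level only in the chronic lesioned group, the one whose values led to the choice of these genes, so its r values restate that rise. Near *Areg* stood *Epha2*, an ephrin receptor (r = 0.995), *Stk40* (0.993) and the kinase gene *Pim1* (0.992). *Epha2* had group means of 0.407, 1.22, 0.228 and 11.7 CPM. Near *Hbegf* stood *Dnajb5* (0.989), *Epha2* again (0.985) and *Soat1* (0.984), a cholesterol esterification enzyme gene. *Tgfa* was most like *Triap1* (0.954), *Ppp1ca* (0.953), the catalytic subunit of protein phosphatase 1, and *Rxrg* (0.951), a retinoid receptor gene. *Erbb4* was most like the adhesion molecule gene *Ncam2* (0.965), *Dlgap1* (0.951) and *Chl1* (0.939), *Erbb3* like *Plcl1* (0.949), *Sesn3* (0.948) and *Nek9* (0.942), and *Egfr* like *Nfib* (0.932), *Cdc73* (0.872) and *Zbtb20* (0.859). The clone selected for *Erbb2* was most like *Dynll1* (0.913) and the mitochondrial ribosome genes *Mrpl33* (0.898) and *Mrpl21* (0.892). With a pseudocount of 0.1, 2 of the 3 genes remained for *Areg* and 3 of 3 for each of the other 6 members. The points of these correlations are libraries in 4 groups, so that a shared step between groups gives a high r.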

How the data were processed

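RNA was prepared from 1 striatal punch per hemisphere with a TruSeq kit from 0.5 µg of total RNA. Per the study's methods, the authors mapped reads to mm9 with Genomatix software. The deposited table holds whole-number counts per transcript, and overlapping transcripts of a gene hold nearly the same counts, so that a read may stand under several of them. The deposited normalised expression, a signal scaled by the authors for length and library size, served only as an alternative for the ligand shares. The submitters' processing notes name DESeq. The authors' comparison tables hold 36 per-sample columns (counts and normalised expression), which were not used. The fold changes and p-values of those tables were not used either. The 296 transcripts without a gene symbol (0.0485% of counts) were left out.

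CPM used library totals over named transcripts, scaled by TMM. Counts were tested with edgeR 4.0.16 (quasi-likelihood, filterByExpr, TMM), each comparison of groups on its own 6 libraries and the interaction (lesion effect after chronic minus after acute L-DOPA) on all 12, with Benjamini-Hochberg adjustment over all transcripts tested and calls at 0.05. Scripts were tested on simulated data. Alternatives were DESeq2 1.42.0, its size factors, no filter, 1 transcript per gene, the sum over transcripts, a fit of all 12 libraries, the replicate block and each library left out; the RefSeq transcript was added after seeing the data. Left and right libraries of 1 number deviated together, each r above 0.1. These r were 0.390 to 0.478 after acute and 0.153 to 0.566 after chronic L-DOPA over 12794 genes. Chronic libraries of numbers 1 and 3 reached 0.155 as well. The pairs were used only in the replicate block and the same-numbered ratios. The main fits were unpaired, and calls come from them unless the block is named. The labels count 12 mice for 12 libraries while the methods use each mouse as its own control, so whether a pair is 1 mouse is not settled, and p-values measure the spread between these libraries. No replicates agreed within sampling noise.

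The members, gene lists and markers were chosen with earlier results of these data known. Genes named were the members, pathway genes called with a change of at least 1.5 fold in a lesion effect or its difference, up to 3 others, and the 3 likest genes per member. An exact permutation test of 3 against 3 cannot go below 0.1 and was not used. RefSeq promoter sequences (GRCm38.p6) were matched by symbol to 7 of 10 members. The values of 1 gene of the pathway lists are not reported here.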

Additional observations from a re-analysis of the deposited data

Results flagged for a closer look

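The lesion effect of *Areg* was larger after chronic than after acute L-DOPA by 3.52 on the log2 scale (SE 0.59), from 3.24 to 6.76. *Areg* was known to rise in the chronic lesioned striatum when the genes were chosen, so this difference is a description. The lesion effect of *Hbegf* was larger by 1.45 (SE 0.11, adjusted p = 2.52e-06 for the interaction in edgeR), from 0.26 to 1.70, with 3 of 3 same-numbered pairs higher on the lesioned side in each treatment. *Hbegf* is listed because the test of the difference between treatments passed; *Areg* is listed for its size, with nothing drawn from a test.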

How the results depend on the processing

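Over the alternatives for the members' log2 fold changes, 508 values kept their direction and side of the threshold, 31 lost the call, 20 gained one and 28 changed sign, 1 of them a called value (the *Erbb2* clone between the unlesioned groups, against its RefSeq transcript). The cause of these changes was not tested. Fits with 1 feature per gene called fewer features. The order here is acute lesion, chronic lesion, lesioned chronic against acute, unlesioned chronic against acute, difference of lesion effects. With 1 transcript per gene the calls were 3135, 2663, 4914, 544 and 1053. The sum over transcripts called 2643, 2311, 4310, 101 and 951, beside 16684, 15295, 29699, 3370 and 5911 in the main fits. The sum left 0 members called between the unlesioned groups. With the replicate block, 28240, 27506 and 15879 transcripts were called in the acute and chronic lesion effects and their difference. With *Areg* left out, 3, 4 and 3 members were called there. Between treatments the numbers pair no libraries. The member counts below include *Areg*, whose chronic values are a description. With all 12 libraries, 22945 transcripts were called in the chronic lesion effect, and 1 member and 8.52% of transcripts in the acute one (*Hbegf* adjusted p = 0.0675 and *Tgfa* 0.0640 by edgeR). DESeq2 and no filter gave 6278 and 5821 transcripts between the unlesioned groups. Between the lesioned groups they called 4 members each and 20.1% and 18.7% of transcripts. *Areg*, known beforehand to rise there, is among these 4 as a description only.

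With 1 library left out, transcripts called ranged from 9543 to 15329 (acute lesion), 9137 to 14863 (chronic lesion), 16025 to 36534 (lesioned groups), 66 to 14377 (unlesioned groups) and 3794 to 9536 (difference), and members from 1 to 3, 2 to 4 (lesioned groups) and 0 to 3 (unlesioned groups). Log2 fold changes that crossed 0 then ranged for *Egfr* from -0.018 to 0.11 (acute), -0.24 to 0.076 (chronic), -0.30 to 0.0060 (difference), -0.26 to 0.050 (lesioned) and -0.051 to 0.13 (unlesioned). For *Egf* they ranged from -0.49 to 0.13 (chronic), -0.25 to 0.36 (difference), -0.39 to 0.21 (lesioned) and -0.35 to 0.19 (unlesioned). For the *Erbb2* clone they were -0.071 to 0.055 (acute) and -0.13 to 0.0045 (lesioned), for *Areg* -0.40 to 0.026 and for *Erbb3* -0.041 to 0.16 (unlesioned). The RefSeq transcript of *Erbb2* gave 0.087 (acute), 0.12 (lesioned) and 0.080 (unlesioned) against a clone below 0. Depth limits *Ereg*, *Btc*, *Egf* and the unlesioned level of *Areg*, which rests on 5 to 14 counts.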
